A study of Mus musculus with 2 samples.

Results

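A set of tumour fibroblasts was described that scored highest for Fmod, Comp and Thbs4, genes best known from tendon and cartilage matrix. Of 21172 barcodes in the 2 libraries, 3832 passed as fibroblasts and 683 of these were members of the set. A fibroblast had at least 5000 unique molecular identifiers (UMIs), at least 500 genes and at most 10% mitochondrial UMIs. It also had at least 3000 CPM (UMIs of a gene scaled to a common library total of 1e6) of Col1a1, Col1a2 and Col3a1 together and under 300 CPM of Tyrobp, Pecam1, Rgs5 and Epcam together. Each fibroblast was scored for 5 gene sets, and members were those whose highest standardised score (z over all fibroblasts) was the set of Fmod, Comp and Thbs4. The other sets were C7, Sfrp4 and Abca8a, then Dmkn, Sema3e and Cd55, then Cemip, Ctla2a and Greb1, and last Stra6, Col7a1 and Tnc.

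The cells came from pancreatic ductal adenocarcinoma allografts in mice of genotype p16-CreERT2/R26-LSL-tdTomato. In this model an inducible Cre follows p16, and a cell in which it has acted keeps making tdTomato, as do its descendants. Stromal cells of the tumours were sorted as tdTomato positive (Tom positive) or tdTomato negative (Tom negative), and each sort gave 1 single-cell library, with 310 and 373 members. Strain, age, the number of animals pooled, the tumour line and the induction scheme were not given in the sources used here. As there was 1 library per sort, no difference between sorts was tested, and every 95% interval below covers counting error only. The members were chosen by the levels of the scored genes, so their differences from the other fibroblasts are a description.

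Tendon is built from parallel collagen fibrils whose thickness and spacing are set by small proteoglycans and bridging glycoproteins. Fmod encodes fibromodulin, a small leucine-rich proteoglycan that binds fibrillar collagen. Comp and Thbs4 encode related thrombospondins of tendon, cartilage and muscle attachments. Resident tendon cells (tenocytes) are known for the transcription factors Scx and Mkx and for Tnmd (tenomodulin), a membrane protein of mature tenocytes. In pancreatic tumours, fibroblasts lay down most of the dense collagen stroma.

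The start regions of Fmod, Thbs4 and Tnmd are shown because members were chosen by the first pair, and Tnmd had the higher ratio to the other fibroblasts of the 2 markers outside the scored genes. Each runs 5′ to 3′ from 250 bases before to 50 bases after the start in RefSeq, on GRCm38.p6, and capitals mark CANNTG, the E-box letters bound by Scx and other basic helix-loop-helix factors.
Fmod promoter, chr1:134037004-134037303, plus strand: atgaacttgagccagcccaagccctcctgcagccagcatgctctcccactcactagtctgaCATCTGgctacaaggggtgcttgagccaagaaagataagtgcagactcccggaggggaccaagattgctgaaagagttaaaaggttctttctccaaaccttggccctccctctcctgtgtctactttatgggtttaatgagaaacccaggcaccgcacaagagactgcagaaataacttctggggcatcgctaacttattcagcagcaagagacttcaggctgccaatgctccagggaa
Thbs4 promoter, chr13:92794769-92795068, minus strand: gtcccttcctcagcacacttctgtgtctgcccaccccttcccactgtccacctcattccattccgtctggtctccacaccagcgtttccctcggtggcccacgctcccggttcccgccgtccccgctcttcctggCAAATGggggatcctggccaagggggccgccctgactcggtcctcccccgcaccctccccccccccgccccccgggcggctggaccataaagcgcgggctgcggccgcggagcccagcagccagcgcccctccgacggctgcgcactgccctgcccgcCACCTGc
Tnmd promoter, chrX:133850758-133851057, plus strand: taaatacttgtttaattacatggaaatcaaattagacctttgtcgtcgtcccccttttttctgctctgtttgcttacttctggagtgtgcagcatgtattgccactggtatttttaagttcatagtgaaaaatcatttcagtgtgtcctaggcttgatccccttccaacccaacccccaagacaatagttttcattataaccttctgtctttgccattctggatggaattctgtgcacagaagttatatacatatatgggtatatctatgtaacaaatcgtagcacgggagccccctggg
The Fmod window held 1 match, beginning 189 bases before the start, and the Thbs4 window held 2, beginning 115 bases before and 43 bases after it. The Tnmd window held none. CANNTG reads the same on both strands and occurred in 72.3% of 32851 RefSeq promoter windows of the same length, so a match is a description of the letters only. None of the 3 windows held TGANTCA (the AP-1 letters, in 7.81% of windows) or TATAAA (in 13.6%) on either strand.

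Depth was high in both libraries. The median was 41522 UMIs and 6532 genes in Tom positive members and 36020 UMIs and 6284 genes in Tom negative members, against 40938 and 39250 UMIs in the other fibroblasts. Barcode sequences present in both libraries numbered 159 among Tom positive and 13 among Tom negative members, and for 0 of them did the other library hold more than 5 times the UMIs. Scrublet, a doublet caller, marked 5 Tom positive and 3 Tom negative members, which the rule keeps.

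Membership was graded rather than sharp. The z for Fmod, Comp and Thbs4 ran from -0.57 to 10.4 among members, with a median of 1.29, and 40 members had a z below 0. UMIs of all 3 genes were present in 30.6% of the Tom positive members and 28.4% of the Tom negative ones, and 7 members had UMIs of none. The 59 members that led by under 0.1 z averaged 29.8 CPM of Fmod, 17.1 of Comp and 297 of Thbs4. The 40 other fibroblasts that missed by under 0.1 z averaged 74.0, 31.0 and 197 CPM. The second-highest set was that of C7, Sfrp4 and Abca8a in 216 members and that of Stra6, Col7a1 and Tnc in 211.

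The scored genes were high in the members of both libraries, as the rule requires. Thbs4 stood at 1799 CPM in Tom positive members and 707 CPM in Tom negative ones, against 58.6 and 42.0 CPM in the other fibroblasts of each library. Fmod stood at 409.6 and 189 CPM, against 18.5 and 10.6 CPM. Comp stood at 138 and 159.9 CPM, against 9.34 and 7.13 CPM. Outside the members, each of the 3 was lowest or near lowest in the Dmkn, Sema3e and Cd55 cells, with 5.9 and 2.5 CPM of Fmod. Thbs4 and Comp were next highest in the C7, Sfrp4 and Abca8a cells, with 148.6 and 67.5 CPM of Thbs4. A typical member carried far less than these sums: the median Tom positive member had 94.3 CPM of Fmod, 455 CPM of Thbs4 and no Comp UMI, while the highest cells reached 24701, 48239 and 6309 CPM.

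Of the tendon genes that the rule did not score, Tnmd and Col11a1 were higher in members, and Scx, Mkx and Kera were low. Egr1, also on the tenocyte marker list, was lower in members without passing 1.5-fold. Tnmd was 124 CPM in Tom positive members against 24.5 CPM in the other fibroblasts, and 106 against 6.06 CPM in the Tom negative library. Col11a1, a minor fibrillar collagen that seeds thin fibrils, was 236 against 80.6 CPM and 224 against 41.2 CPM. Mkx was 21.2 against 13.04 CPM and 20.7 against 7.08 CPM. Scx was 6.80 against 0.862 CPM and 7.07 against 0.402 CPM. Egr1 was 1102 against 1305 CPM and 1211 against 1628 CPM. With Egr1 in the sum, the 6 tenocyte markers stood at 1276.5 against 1343.7 CPM and 1346.5 against 1641.6 CPM. Outside the members, Tnmd was next highest in the C7, Sfrp4 and Abca8a cells, at 54.6 and 15.5 CPM, and Col11a1 in the Cemip, Ctla2a and Greb1 cells, at 132 and 92.1 CPM. Kera, which encodes the proteoglycan keratocan, was 18.8 CPM in Tom positive members and 1.30 CPM in Tom negative members.

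Of the Tom positive members 41.9% had a Tnmd UMI (95% interval 36.4 to 47.6), and of the Tom negative members 40.8% did (35.7 to 45.9). Tyrobp-high cells, which should lack Tnmd, had one in 1.14% of cells in either library, at a median of 20881 UMIs in the Tom positive and 21715 in the Tom negative library. Thinned to 5000 UMIs a cell, the member shares were 26.5% and 26.01% and the Tyrobp-high shares 0.263% and 0.0601%. For Scx the member shares were 9.35% and 10.7%, or 2.26% and 2.68% when thinned, against 0.613% and 0.481% in Tyrobp-high cells. Of the wider list of tenocyte transcription factors and surface genes, 3 of 8 measured at 10 CPM or more were past 1.5-fold higher in the Tom positive library (4.15% of all genes at this limit) and 3 of 7 in the Tom negative library (6.24%), with 0 (3.83%) and 1 (6.74%) lower. Kera, 1 of the Tom positive 3, was measured only through the members, and the others were Mkx and Tnmd. Mkx, 1 of the Tom negative 3, was likewise measured there only through the members. By level over all fibroblasts 2 of 7 were higher in the Tom positive library, Mkx and Tnmd, and 0 lower. In the Tom negative library 2 of 6 were higher, Tnmd and Foxp2, and 1 lower, Egr2. On that basis 3.10% and 4.64% of all genes were higher. Most members had no Scx UMI at these depths, and 180 of 310 and 221 of 373 had no Tnmd UMI. Fmod, Comp and Thbs4 chose the members, so their levels cannot bear on a tendon label. Outside the rule such a label would rest on Tnmd and Col11a1 rather than on Scx. The members are therefore named below by their leading genes or simply as members.

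Across all genes, 152 were at least 1.5-fold higher in Tom positive members than in the other Tom positive fibroblasts (4.46% of 3406 genes at 50 CPM or more) and 148 were at least 1.5-fold lower (4.35%). In the Tom negative library 209 were higher (5.94% of 3521) and 279 lower (7.92%). Past this fold in both libraries were 122 higher genes (3.68% of 3312) and 124 lower genes (3.74%). These shares contain the scored genes and describe the choice of cells.

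After the scored genes, those furthest above the other fibroblasts were Col8a2, Brinp1, Camk4 and Tnmd. Brinp1, known from the nervous system, was 159.7 CPM in Tom positive members and 126 CPM in Tom negative ones, against 24.2 and 17.2 CPM. Camk4, a calcium-dependent kinase, was 113 and 132 CPM, against 18.9 and 12.3 CPM. Col8a2, a short-chain network collagen, was 97.5 CPM in Tom positive members and 99.02 CPM in Tom negative ones, against 13.2 and 11.5 CPM. Nov (CCN3), a matricellular protein, was 972 and 890 CPM, against 211 and 139.5 CPM. Ptn (pleiotrophin), a heparin-binding growth factor, was 504 and 697 CPM, against 127 and 99.5 CPM. C1qtnf3, a secreted relative of complement C1q, was 474 and 436 CPM, against 120.0 and 63.9 CPM. Rspo3, which amplifies WNT signals, was 51.6 and 60.05 CPM, against 12.1 and 8.35 CPM. The ranking required the same side in both libraries, so that agreement is not a result. Member levels of these 7 genes differed between sorts by less than the difference from the other fibroblasts. Penk, Angptl1, Adamtsl3 and Capn6 completed the ranking, with ratios of 3.93 to 5.18 in the Tom positive and 4.50 to 8.56 in the Tom negative library.

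**Figure D1:**
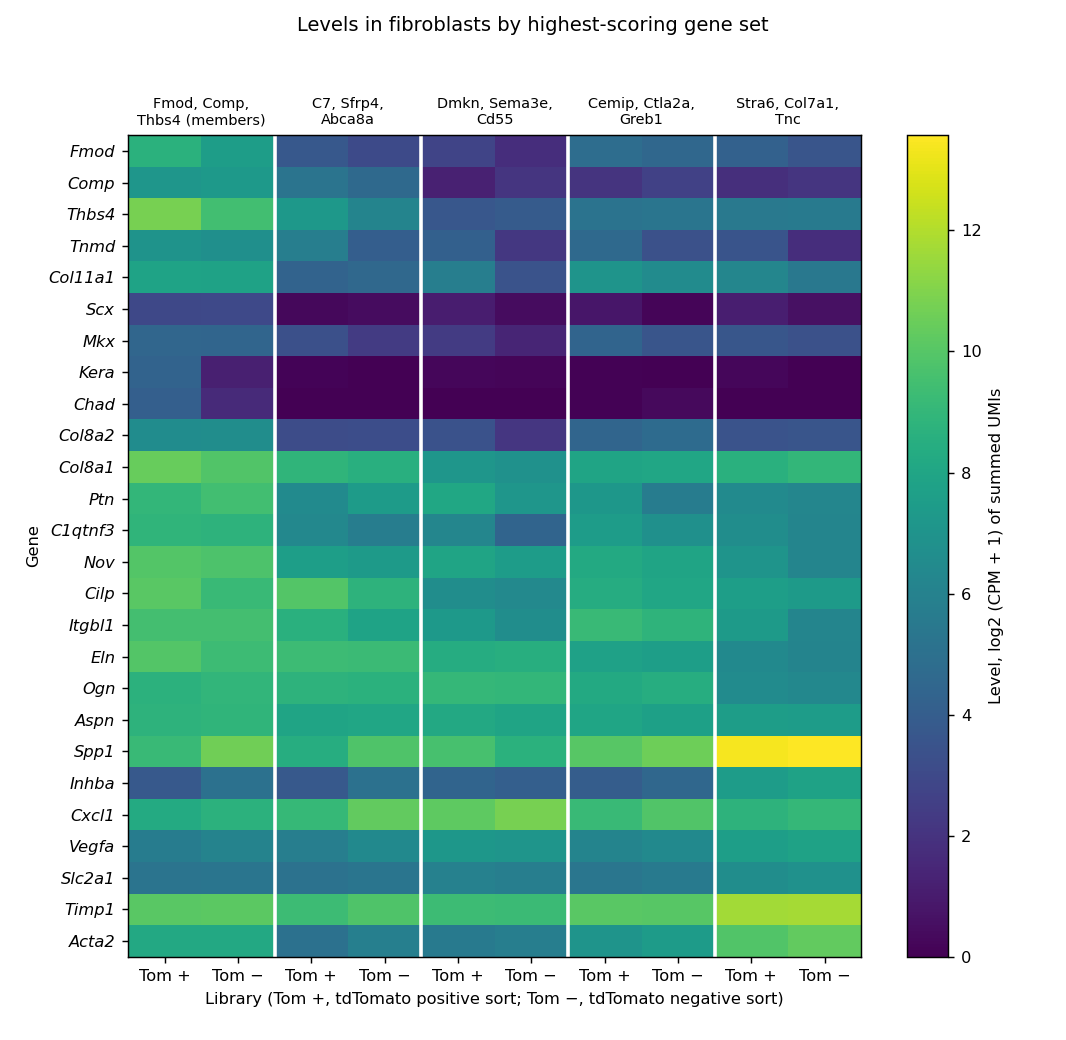
Levels of genes as log2 (CPM + 1) of summed UMIs in the 5 fibroblast sets of each library, colour from low (dark) to high (light). Members fill the first pair of columns: Thbs4 stands at 1799 and 707 CPM there, and Spp1 is highest in the Stra6, Col7a1 and Tnc cells.

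Several small leucine-rich proteoglycans, the family of Fmod, were higher in members of both libraries. Of 11 measured at 10 CPM or more in the Tom positive library 8 were at least 1.5-fold higher in members and 0 lower, and in the Tom negative library 6 of 9 and 0. The list medians were 0.87 and 0.80 on the log2 (CPM + 1) scale, beside 0.022 and 0.00092 over all genes measured. These counts hold Fmod, which the rule scored, and in the Tom positive library Kera and Chad, which reached 10 CPM only through the members. Without scored genes, and with genes at 10 CPM or more over all fibroblasts of the library, 5 of 8 were higher in each library, namely Aspn, Prelp, Ogn, Podn and Ecm2, and 0 lower. On that basis 3.10% and 4.64% of all genes were higher, and the list medians were 0.64 and 0.74. Podn (podocan) was 271.5 against 125 CPM and 203 against 75.4 CPM. Aspn (asporin) was 436 against 229 CPM and 474 against 212 CPM. Ogn (osteoglycin) and Prelp were 1.501 to 1.83 times and 1.61 to 1.62 times the other fibroblasts. Decorin and lumican, encoded by Dcn and Lum and abundant in most fibroblasts, were not past the fold, with ratios of 0.836 and 0.861 for Dcn and 0.7997 and 0.896 for Lum.

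Cartilage-type matrix genes were higher in part, whereas the genes that define chondrocytes were near 0. In the Tom positive library 9 of 12 measured genes were higher and 1 lower, and in the Tom negative library 8 of 11 were higher and 2 lower, with medians of 1.01 and 1.40. All genes at 10 CPM or more were higher in 4.15% and 6.24% of cases and lower in 3.83% and 6.74%. Both counts hold Comp, which the rule scored, and the Tom positive count holds Chad, measured only through the members, and Prg4, which without sub-cluster 8 (described below) was 139.9 against 179 CPM. Without scored genes, and by level over all fibroblasts, 7 of 10 and 6 of 9 were higher and 1 and 2 lower, with medians of 0.91 and 1.11, and Prg4 was still among the 7. Of all genes on this basis 3.10% and 4.64% were higher and 3.65% and 6.71% lower. Cilp, a cartilage matrix glycoprotein, was 1101 against 393 CPM and 587.5 against 213 CPM. Itgbl1, a secreted integrin beta-like protein, was 744.5 against 352 CPM and 728 against 170.1 CPM. Clec11a, an osteogenic growth factor of skeletal tissue, was 149 against 64.6 CPM and 148.02 against 55.5 CPM. Sox9, a master factor of cartilage, was 44.3 against 23.5 CPM and 54.9 against 24.8 CPM, while its partner Sox5 was lower at 247.5 against 456 CPM and 274 against 463 CPM. Acan (aggrecan) stood at 2.86 and 6.35 CPM and Col2a1 at 0.154 and 0.505 CPM in members. None of the 6 chondrocyte markers reached 10 CPM, and they summed to 12.4 and 16.2 CPM in members against 3.35 and 3.06 CPM.

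Elastic fibre genes were split. The same 5 of 18 genes were higher in both libraries, namely Eln, Mfap4, Fbln5, Ltbp2 and Ltbp3, and the same 3 were lower, namely Efemp1, Ltbp1 and Emilin2. Over all genes at 10 CPM or more, 4.15% and 6.24% were higher and 3.83% and 6.74% lower. Eln (elastin) was 969 against 266 CPM and 639 against 241 CPM. Ltbp2, which competes for fibrillin microfibrils, was 182 against 52.1 CPM and 149 against 57.1 CPM. Efemp1 (fibulin-3) was 32.4 against 93.03 CPM and 59.7 against 142 CPM. The list medians were 0.24 and 0.19.

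The bulk collagens of tumour stroma did not set the members apart. Col1a1 was 21487 CPM in Tom positive members and 19050.2 CPM in Tom negative ones, ratios of 0.9403 and 1.14 to the other fibroblasts. Of 9 fibrillar collagens measured, Col11a1 was the 1 higher gene in each library, and Col5a3 was lower in both, at 111 against 308 CPM and 118 against 368 CPM. Col8a1 and Col8a2 were the 2 higher of 14 other collagens in each library, where 2 and 6 were lower, and Col8a1 was 1346 against 327.5 CPM and 957 against 367 CPM. The lower genes hold Col7a1, scored for another set. Without scored genes, and by level over all fibroblasts, 2 of 13 were higher in each library and 1 and 5 lower. On that basis 3.10% and 4.64% of all genes were higher and 3.65% and 6.71% lower. Among 25 genes of collagen processing, Tll1, a procollagen-cleaving protease, was higher in both libraries, and 6 were lower in each, Loxl2 and P4ha1 among both. In the Tom negative library Tll1 was measured only through the members. By level over all fibroblasts 1 of 24 was higher in the Tom positive library, Tll1, and 0 of 24 in the Tom negative library, with 5 and 6 lower. Of the 5 thrombospondins Thbs4 and Comp were higher, as scored, whereas Thbs1 had ratios of 1.31 and 1.08 and Thbs2 of 0.708 and 0.897.

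Secreted WNT modulators and the IGF axis were also higher in part. Among 10 measured WNT genes 6 were higher in Tom positive members and 5 in Tom negative members, with 3 lower in each. The lower genes hold Sfrp4, scored for another set, and the Tom positive higher genes hold Wif1, measured only through the members and with 86.6% of its UMIs in sub-cluster 8. Without scored genes, and by level over all fibroblasts, 5 of 8 were higher in each library and 2 and 1 lower. Beside them 3.10% and 4.64% of all genes were higher and 3.65% and 6.71% lower. Sfrp1 was 1795 against 958 CPM and 2163 against 657 CPM, and Sfrp2 was 2163 against 1299 CPM and 2956 against 1122 CPM; both are soluble binders of WNT proteins. Dkk2, a secreted inhibitor, was 55.8 against 25.5 CPM and 60.4 against 27.1 CPM, and Wnt2 was lower. Igf1 was 968 against 495 CPM and 1209 against 399 CPM, and Igfbp4 was 3958 against 2291 CPM and 3884 against 1944 CPM. Of the IGF genes 2 of 8 and 3 of 9 were higher, and 1 and 2 lower. Igfbp2, 1 of the Tom negative 3, was measured there only through the members. By level over all fibroblasts 2 of 8 were higher in each library, beside 3.10% and 4.64% of all genes. Among 25 genes of the TGF-beta and BMP family, Tgfb3 and Chrdl2 were higher in both libraries, and 4 in the Tom positive and 7 in the Tom negative library were lower, Tgfb1 and Inhba among both. Chrdl2 was measured only through the members. By level over all fibroblasts 1 of 24 (4.17%), Tgfb3, was higher in each library, close to the 3.10% and 4.64% of all genes. Lower were 4 (16.7%) and 7 (29.2%), beside 3.65% and 6.71% of all genes.

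Lower in the members were genes of hypoxia, inflammation and the progenitor state. Of 11 measured hypoxia genes 8 were lower in the Tom positive library (3.83% of all genes at this limit) and 9 in the Tom negative library (6.74%), with 0 higher and medians of -0.75 and -0.96. Vegfa, the vascular growth factor, was 50.2 against 119.5 CPM and 66.8 against 158 CPM. Adm (adrenomedullin) was 75.01 against 195 CPM and 58.7 against 198 CPM. Slc2a1, the main glucose carrier, was 36.2 against 62.3 CPM and 37.2 against 78.6 CPM.

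Of 19 inflammatory fibroblast genes 10 were lower in Tom positive (3.83% of all genes at 10 CPM or more) and 13 in Tom negative members (6.74%). Cxcl1, a neutrophil-attracting chemokine, was 312 against 593 CPM and 428 against 979 CPM, and Il6 was 99.9 against 168 CPM and 91.9 against 231 CPM. Cxcl14 alone was higher, in the Tom positive library, at 2929 against 1931 CPM, and stood at a ratio of 1.48 in the Tom negative library. Among 11 progenitor genes 8 and 7 were lower, Cd55 among them, which the rule scored for another set. Without scored genes 7 of 10 and 6 of 10 were lower, beside 3.65% and 6.71% of all genes, with Dpp4 at 18.8 against 63.0 CPM and 15.4 against 74.4 CPM. Low Dpp4 was not particular to members, as the Stra6, Col7a1 and Tnc cells had 17.1 and 15.5 CPM. Among the progenitor genes Penk was the exception in both libraries, at 61.6 against 14.0 CPM and 68.4 against 15.2 CPM.

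Of the 10 genes furthest below the other fibroblasts, Ctla2a and Sfrp4 were scored for other sets. Spp1 (osteopontin) was 594 CPM in Tom positive members and 1581 CPM in Tom negative ones, against 4274 and 6015 CPM, and was highest in the Stra6, Col7a1 and Tnc cells with 10692 and 12181 CPM. Spp1 was lower than in members in the C7, Sfrp4 and Abca8a cells, at 354 and 906 CPM. It was also lower in the Tom negative Dmkn, Sema3e and Cd55 cells, at 413 CPM. Inhba, an activin subunit, was 12.6 against 72.8 CPM and 32.4 against 115 CPM. Inhba stood at 179 and 227 CPM in the Stra6, Col7a1 and Tnc cells. In the C7, Sfrp4 and Abca8a cells it was close to the members, at 13.1 and 32.5 CPM. Mmp13, a collagenase, was 14.5 against 78.8 CPM and 10.03 against 73.7 CPM. In the Tom negative Dmkn, Sema3e and Cd55 cells Mmp13 was lower than in members, at 6.65 CPM. Cxcl13, a B cell chemokine, was 8.73 against 50.9 CPM and 15.9 against 122 CPM. Pla1a, Csmd1, Slco5a1 and Dpp4 completed the ranking. Csmd1 was 48.4 and 69.3 CPM in members and lower, at 35.2 and 34.6 CPM, in the Stra6, Col7a1 and Tnc cells. Matrix proteases and their inhibitors were lower in 8 of 24 and 12 of 25 genes and higher in 3 and 1, with Timp1 at 1092 against 1717 CPM and 1142 against 1988 CPM. Adamtsl2, the Tom negative higher gene, was measured there only through the members. By level over all fibroblasts 3 of 24 and 0 of 24 were higher and 8 and 12 lower. On that basis 3.65% and 6.71% of all genes were lower.

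Some lists differed from the other fibroblasts by unequal amounts in the 2 libraries, and these differences between libraries were not tested. Over all genes at 10 CPM or more the lower share was also unequal, at 3.83% in Tom positive and 6.74% in Tom negative members. The higher shares were 4.15% and 6.24%. Of 8 smooth muscle contractile genes 2 were lower in Tom positive and 5 in Tom negative members, where Acta2, the classical myofibroblast actin, was 296 against 625.5 CPM. In the Tom positive library Acta2 was 292 against 390 CPM. Immediate early genes were lower in 0 of 14 and 6 of 14, and cell division genes in 0 of 13 and 7 of 15. Integrins and matrix receptors were lower in 4 of 14 and 7 of 15 and higher in 3 and 2, with Itga11, a collagen receptor subunit, higher in both at 90.2 against 45.6 CPM and 105 against 32.1 CPM. Cdkn1a was the 1 lower of 8 cell cycle inhibitors in each library, at 23.3 against 51.7 CPM and 29.4 against 63.4 CPM, and Cdkn1c was higher in the Tom negative library at 250.1 against 146 CPM.

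**Figure D2:**
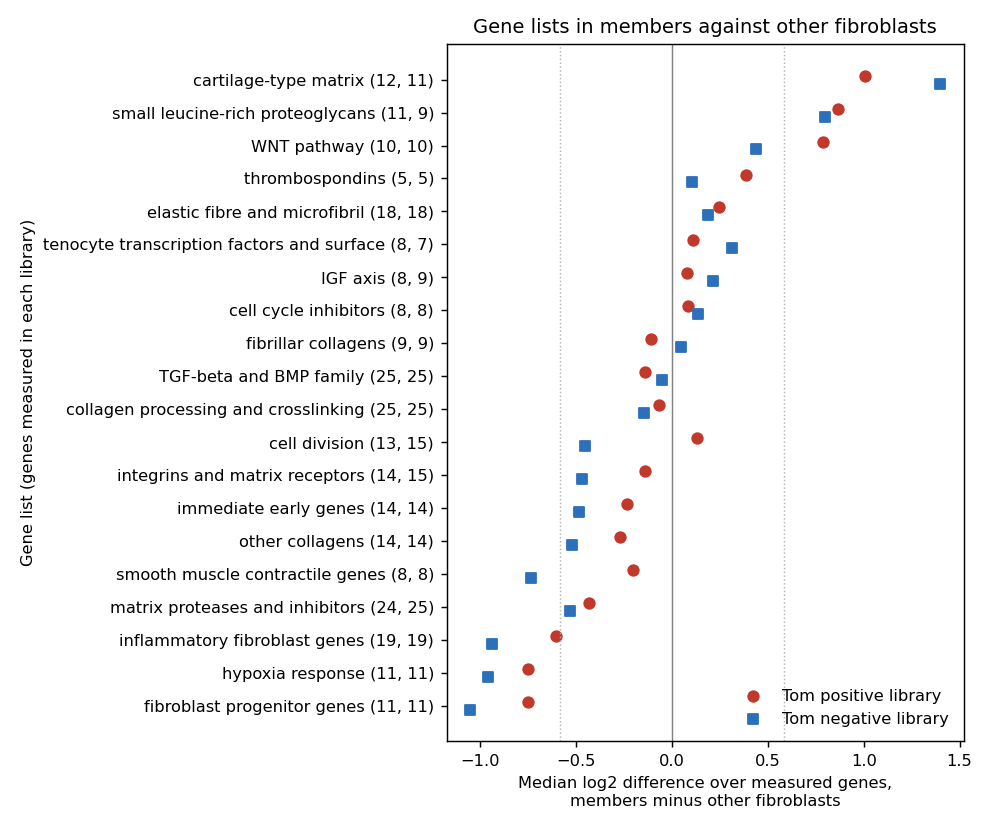
Median log2 difference of each gene list, members minus other fibroblasts, over the genes measured in each library, scored genes included (numbers in brackets, Tom positive then Tom negative); circles are Tom positive, squares Tom negative, and dotted lines mark 1.5-fold. Cartilage-type matrix (1.01 and 1.40) and small leucine-rich proteoglycans (0.87 and 0.80) lie furthest right, and hypoxia (-0.75 and -0.96) and progenitor genes (-0.75 and -1.05) furthest left.

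Markers of other cell types were low in members. The 4 macrophage markers summed to 61.6 CPM in Tom positive members and 93.3 CPM in Tom negative ones, against 52.8 and 98.04 CPM in the other fibroblasts. Endothelial markers summed to 28.8 and 25.3 CPM, neutrophil markers to 16.6 and 32.04, pericyte or smooth muscle markers to 16.7 and 21.6, and skeletal muscle markers to 8.11 and 2.81. Osteoblast markers summed to 10.7 and 8.73 CPM with Sp7 and Ibsp at 0 in Tom positive members, mesothelial markers to 3.09 and 0.794 with Lrrn4 at 0 in both, and Schwann markers to 1.54 and 1.44. Epithelial markers summed to 29.9 CPM in Tom positive members and 12.4 in Tom negative ones, where Epcam was at 0, against 5.01 and 8.09 CPM in the other fibroblasts. Fibroblast markers summed to 62240 and 58652 CPM.

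Summed over cells, members had the lowest tdTomato level of the 5 fibroblast sets in the Tom positive sort. By the median cell they did not, with 28.3 CPM in members and 26.5 CPM in the C7, Sfrp4 and Abca8a cells. tdTomato stood at 143 CPM (95% interval 136 to 149) in Tom positive members. It stood at 259 CPM in the C7, Sfrp4 and Abca8a cells, 282 in the Cemip, Ctla2a and Greb1 cells, 594 in the Dmkn, Sema3e and Cd55 cells and 713 in the Stra6, Col7a1 and Tnc cells. Cells at 500 CPM of tdTomato or more were 27 of the 310 Tom positive members, or 8.71% (5.82 to 12.4), and 20.5% (18.2 to 22.9) of the other Tom positive fibroblasts. The interval of the members overlapped those of the C7, Sfrp4 and Abca8a cells, at 12.8% (9.21 to 17.3), and of the Cemip, Ctla2a and Greb1 cells, at 13.7% (10.47 to 17.5). In the Tom negative library 0 of 373 members reached that level, which allows a share of up to 0.804%, and tdTomato stood at 12.3 CPM.

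A tdTomato UMI was nonetheless present in 69.7% of the Tom positive members and 30.6% of the Tom negative ones, or 24.2% and 6.70% at 5000 UMIs, and in 59.4% of the Tom positive C7, Sfrp4 and Abca8a cells. Of the Tyrobp-high cells in the Tom negative library 51.3% had a UMI, so low levels cannot be read as reporter activity. Cdkn2a, the gene of p16 and of the Arf protein, which 3′ reads do not separate, was 14.9 CPM in Tom positive members and 14.6 CPM in Tom negative ones, a ratio of 1.02 (0.835 to 1.25). It was 15.05 and 16.4 CPM in the other fibroblasts. The 27 reporter-high members had 166 CPM of Fmod, 89.1 of Comp, 808 of Thbs4 and 141 of Tnmd, and the other 283 Tom positive members had 430.2, 142, 1883 and 123 CPM. All 11 Tom positive cells of sub-cluster 8 were among the 283, and without them Fmod there was 200.3 CPM, Comp 101 CPM and Thbs4 1179 CPM. Among the 27, 5 fell in sub-cluster 6, led by Cd74, Mmp12 and Arg1. Without sub-clusters 6 and 8 Fmod was 200.7 against 201.6 CPM and Thbs4 905 against 1195 CPM.

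**Figure D3:**
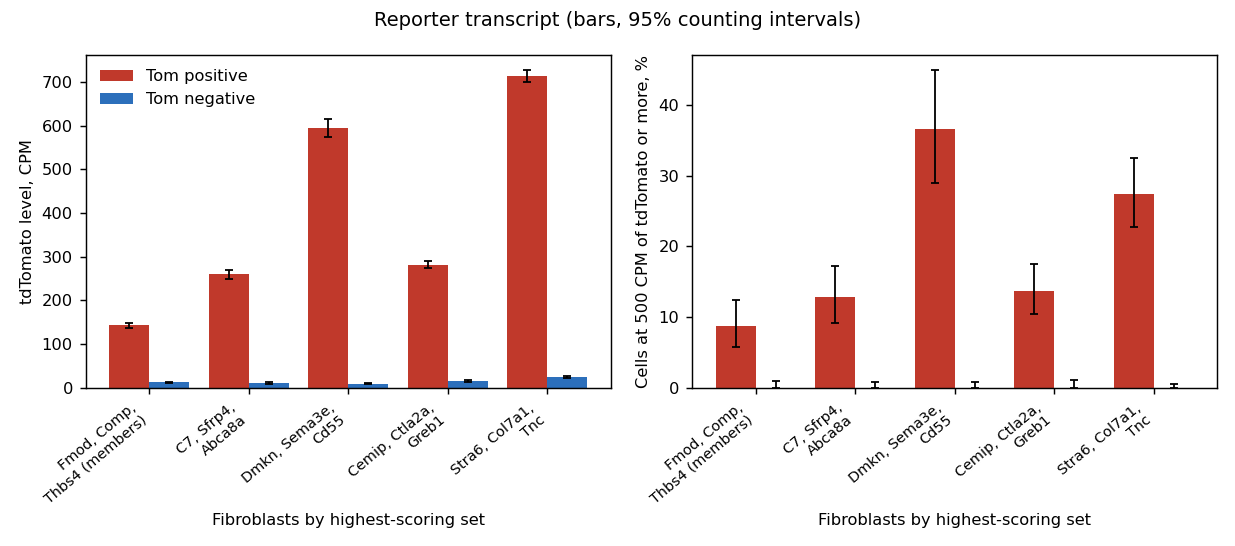
tdTomato by fibroblast set and library: left, level in CPM of summed UMIs; right, share of cells at 500 CPM or more, in percent; bars carry 95% counting intervals. Tom positive members have the lowest level (143 CPM) and share (8.71%) of the 5 sets, and no Tom negative set has a reporter-high cell.

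The share of fibroblasts that were members was 20.8% (18.8 to 22.99) among Tom positive cells and 15.9% (14.5 to 17.5) among Tom negative cells. The ratio of the shares was 1.31 (1.12 to 1.53). With z taken within each library the shares were 18.5% and 16.9%, a ratio of 1.09.

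Between the sorts, members differed in few genes. At least 1.5-fold higher in Tom positive members were 45 of 3389 genes (1.33%), and 23 were at least 1.5-fold lower (0.679%). In the other fibroblasts 27 of 3373 were higher (0.8%) and 36 lower (1.07%). Thbs4 was 2.54 times as high in Tom positive members (2.48 to 2.60) and Fmod 2.17 times (2.07 to 2.27), while Comp had a ratio of 0.863 (0.810 to 0.919), Col11a1 of 1.06 (1.004 to 1.11) and Tnmd of 1.17 (1.09 to 1.26). Cilp was 1.87 times as high (1.82 to 1.93) in members and differed in the other fibroblasts by a log2 difference of 0.88, close to the 0.90 of members.

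A group of 13 members carried much of the Fmod difference. These formed sub-cluster 8 when members were clustered without the scored genes, the fixed markers and genes that differed between sorts. It held 11 Tom positive and 2 Tom negative members, or 3.55% (1.78 to 6.26) and 0.536% (0.0650 to 1.92). They held 52.7% of the Fmod UMIs of Tom positive members and 15.9% of those of Tom negative members, 37.3% and 9.05% of Thbs4 UMIs, and 28.6% and 0.993% of Comp UMIs. Without them Fmod was 198 against 159.8 CPM, a ratio of 1.24 (1.17 to 1.31), and Thbs4 was 1150 against 646 CPM, a ratio of 1.78 (1.73 to 1.83). Comp was then 100.5 against 159 CPM, a ratio of 0.632 (0.5895 to 0.678), past 1.5-fold and lower in Tom positive members. A further Tom positive member, in sub-cluster 4, had 8778 CPM of Fmod, 15962 of Thbs4 and 1653 of Comp. It held 446 Fmod UMIs and remained in these sums. The remaining Fmod ratio of 1.24 therefore rests in part on that cell, and ratios without it were not computed.

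**Figure D4:**
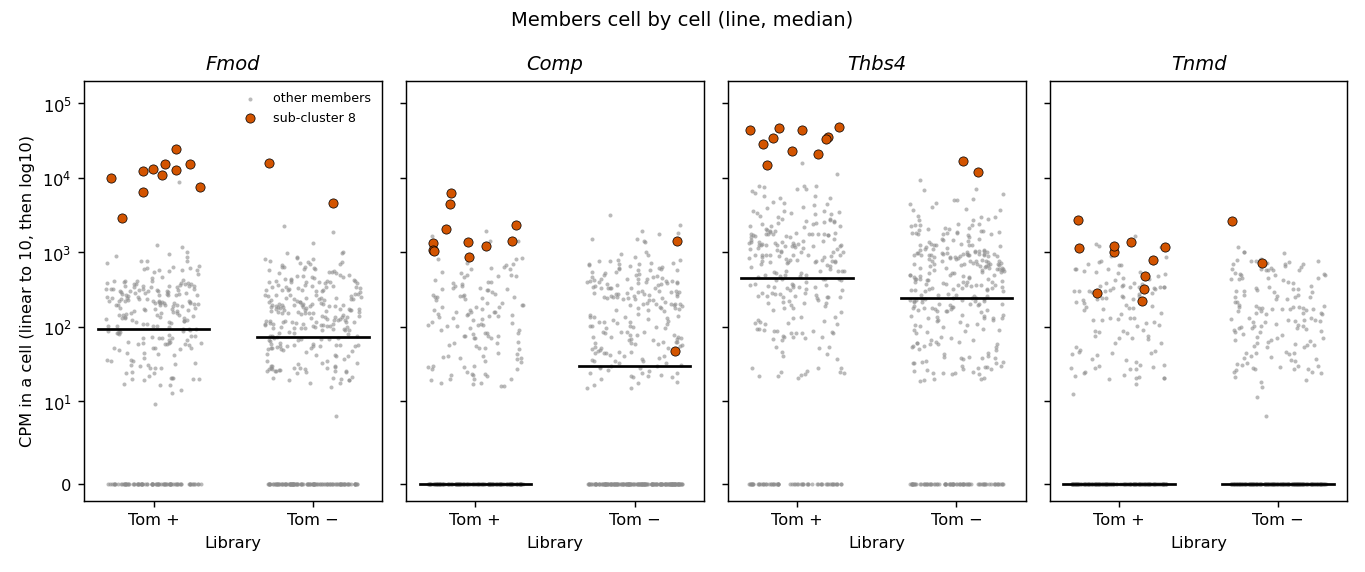
CPM of Fmod, Comp, Thbs4 and Tnmd in each member by library, on an axis linear to 10 and log10 above; horizontal lines are medians over members and large points are the 13 cells of sub-cluster 8. Those cells lie above nearly all others for Fmod and Thbs4, and 11 of them are in the Tom positive library.

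The 13 cells stood apart in the tenocyte genes as well, which is a description, since Fmod, Thbs4, Kera, Chad and Prg4 were among their leading genes with Angptl7, Wif1 and Vit. All 13 had UMIs of Fmod, Comp, Thbs4 and Tnmd, with 76 to 555 UMIs of Fmod (median 232), 106 to 1377 of Thbs4 (median 734) and 3 to 112 of Tnmd (median 18). UMIs of Mkx were found in 12 of them, Chad in 11, Scx in 9 and Kera in 7. Their summed levels were 30953 CPM of Thbs4, 10375 of Fmod, 1215 of Tnmd, 717 of Kera, 271 of Mkx and 136 of Scx. The Kera level rested largely on 1 cell with 146 of the 222 UMIs, and was 265 CPM without it. In the other sub-clusters Scx ran from 0.7 to 17.9 CPM and Kera from 0 to 14.7 CPM. Both upper values were those of sub-cluster 4. There 21 of 23 Kera UMIs lay in 1 cell, and Kera was 1.32 CPM without it. Chad, the proteoglycan chondroadherin, stood at 543 CPM in the 13 cells. In sub-cluster 4 all 57 Chad UMIs lay in 1 cell. Prg4, the joint and tendon lubricant, stood at 7153 CPM in the 11 Tom positive cells and 35.4 CPM in the 2 Tom negative cells. Sub-cluster 8 had fewer UMIs per cell than the other members, a median of 23406 and 4727 genes, and 0 Scrublet doublets. It held 0 reporter-high cells, and no cell had more than 4 tdTomato UMIs.

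The same cells held most of the Kera, Chad and Prg4 transcripts of Tom positive members. Sub-cluster 8 held 88.1% of the Kera UMIs (most of them in 1 cell), 70.2% of the Chad UMIs and 50.5% of the Prg4 UMIs of Tom positive members. Without them Kera was 2.28 CPM in Tom positive members and 0.725 CPM in Tom negative ones, below the 10 CPM limit of the lists. Prg4 was 277 against 105 CPM between the sorts, a log2 difference of 1.39, which was 0.40 without sub-cluster 8. Against the other fibroblasts Prg4 was higher in Tom positive members, where the others had 179 CPM, and lower in Tom negative members, where they had 207 CPM.

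Several differences between the sorts were smaller without sub-cluster 5. Higher in Tom positive members were Hmcn2 (hemicentin-2, a long extracellular matrix protein) at 86.05 against 11.04 CPM, a ratio of 7.79 (6.58 to 9.29), and Adh1 at 52.4 against 18.6 CPM. With Thbs4 left out of the score, Adh1 differed by 0.54 on the log2 scale and was not past 1.5-fold. Col4a1, a basement membrane collagen, was 326 against 186 CPM, Fbln7 78.1 against 46.7 CPM and Ltbp4 114 against 72.5 CPM. Sub-cluster 5 held 29 Tom positive and 11 Tom negative members, or 9.35% (6.35 to 13.2) and 2.95% (1.48 to 5.22), and was led by Hmcn2, Adh1, Prex2, Tnxb and Hmcn1. It held 60.2% of the Hmcn2 UMIs of Tom positive members, and without it the ratio was 3.52 (2.91 to 4.28). Without it the ratios were 1.31 for Col4a1, 1.35 for Fbln7 and 1.27 for Ltbp4, none past 1.5-fold. Hmcn2 was also higher in the other Tom positive fibroblasts, at 69.2 against 17.8 CPM. Eln, at 969 against 639 CPM, and Col15a1, at 175 against 111 CPM, had ratios of 1.53 each without sub-cluster 5.

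Some of the highest differences between the sorts came from single cells. Of 1248 Tff1 UMIs in Tom positive members 1247 lay in 1 cell, of 742 Lrg1 UMIs 593 did, and of 4692 Hp UMIs 3459 did. Without the member of each library with most UMIs, the log2 differences were 0.11 for Tff1, 0.02 for Lrg1 and -0.64 for Hp. The remaining high genes by rank were tdTomato, Atf3, F2r (a thrombin receptor) and Tmx4. Of these F2r was 191 against 95.3 CPM, a ratio of 2.01 (1.88 to 2.15).

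Lower in Tom positive members were Spp1, at 594 against 1581 CPM (ratio 0.376), Efemp1, at 32.4 against 59.7 CPM, and Tnfsf11, the osteoclast factor RANKL, at 25.3 against 51.5 CPM. Frmd5 was 11.3 against 54.6 CPM, with log2 differences of -2.18 in members and 0.16 in the other fibroblasts. Nme2, Gstp1 and Bloc1s1 were also lower, but they had log2 differences of -1.71, -1.20 and -0.90 in the other fibroblasts. Cd74, Mmp12 and Cxcl2, genes of macrophages and other immune cells, were lower too, and sub-cluster 6 held 75.3% and 59.97% of the Cd74 UMIs of the members of each sort. Without sub-cluster 6 Cd74 was 7.55 against 34.998 CPM, a ratio of 0.216 (0.171 to 0.269). Slpi and Wfdc17 completed the ranking. Slpi was not past 1.5-fold as a mean over cells (-0.47, log2), nor was Wfdc17 without sub-cluster 6 (-0.53), with Thbs4 left out of the score (-0.33), at the 5% mitochondrial limit (-0.46) or with z within each library (-0.54). By list, neutrophil markers were lower in 2 of 2 and macrophage markers in 2 of 3, and their part in these differences was not tested. When Comp was left out of the score, the differences were -0.27 for Cd74 and -0.36 for Efemp1 (log2), and when Thbs4 was left out that of Mmp12 was -0.21, none past 1.5-fold.

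Most lists were close between the sorts. None of 9 fibrillar collagens, 24 genes of collagen processing, 9 hypoxia genes or 13 integrins and matrix receptors was past 1.5-fold. Cell division genes were higher in 4 of 12, with Mki67 at 15.6 against 6.495 CPM and Top2a at 27.8 against 14.4 CPM. Over all genes at 10 CPM or more, 1.64% were higher and 1.47% lower in members, and 1.11% and 1.58% in the other fibroblasts. Sub-cluster 4, led by cell division genes, held 13 Tom positive and 10 Tom negative members.

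The remaining sub-clusters divided the members by other programmes, with names of leading genes that describe the clusters and are not findings. Sub-cluster 2 was the largest, with 149 cells led by Nrk, Rspo3 and Ptn, and held 207.5 CPM of Tnmd and 324 of Col11a1. Sub-cluster 0, of 130 cells, was led by Rrad, Itih5, Clec3b and Ccl7 and had 43.6 CPM of Fmod. Sub-cluster 3, of 104 cells, was led by Acta2 and Tagln and had 26.9 CPM of Tnmd. Sub-cluster 1, of 97 cells, was led by Dio3, Col8a1, Sparcl1, Cilp and Mgp, and its Thbs4 stood at 1461 CPM. Sub-cluster 7, of 67 cells, was led by Gzmd, Gzme and Slpi and had 533 CPM of Col11a1. Sub-cluster 9, of 42 cells, was led by Hp, Gdf10 and Aldh1a2 and had 378 CPM of Comp. With sub-cluster 8 set aside, Thbs4 was highest in sub-cluster 5, at 2807 CPM, and Comp in sub-cluster 9. Fmod was highest in sub-cluster 4, at 307 CPM, but 446 of its 479 UMIs there lay in 1 cell and it was 21.8 CPM without that cell.

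Sub-clusters 0, 2, 7 and 9 took larger shares of Tom negative members, and 1, 3, 4, 5, 6 and 8 of Tom positive members. The intervals of the 2 sorts did not overlap for sub-cluster 5, at 9.35% and 2.95%. Sub-cluster 6, of 18 cells, was led by Cd74, Mmp12 and Arg1 and held 6 of the 8 members that Scrublet marked. At a resolution of 1.0 the 13 cells of sub-cluster 8 again formed a cluster of 13, and at 0.5 they fell within a cluster of 154.

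**Figure D5:**
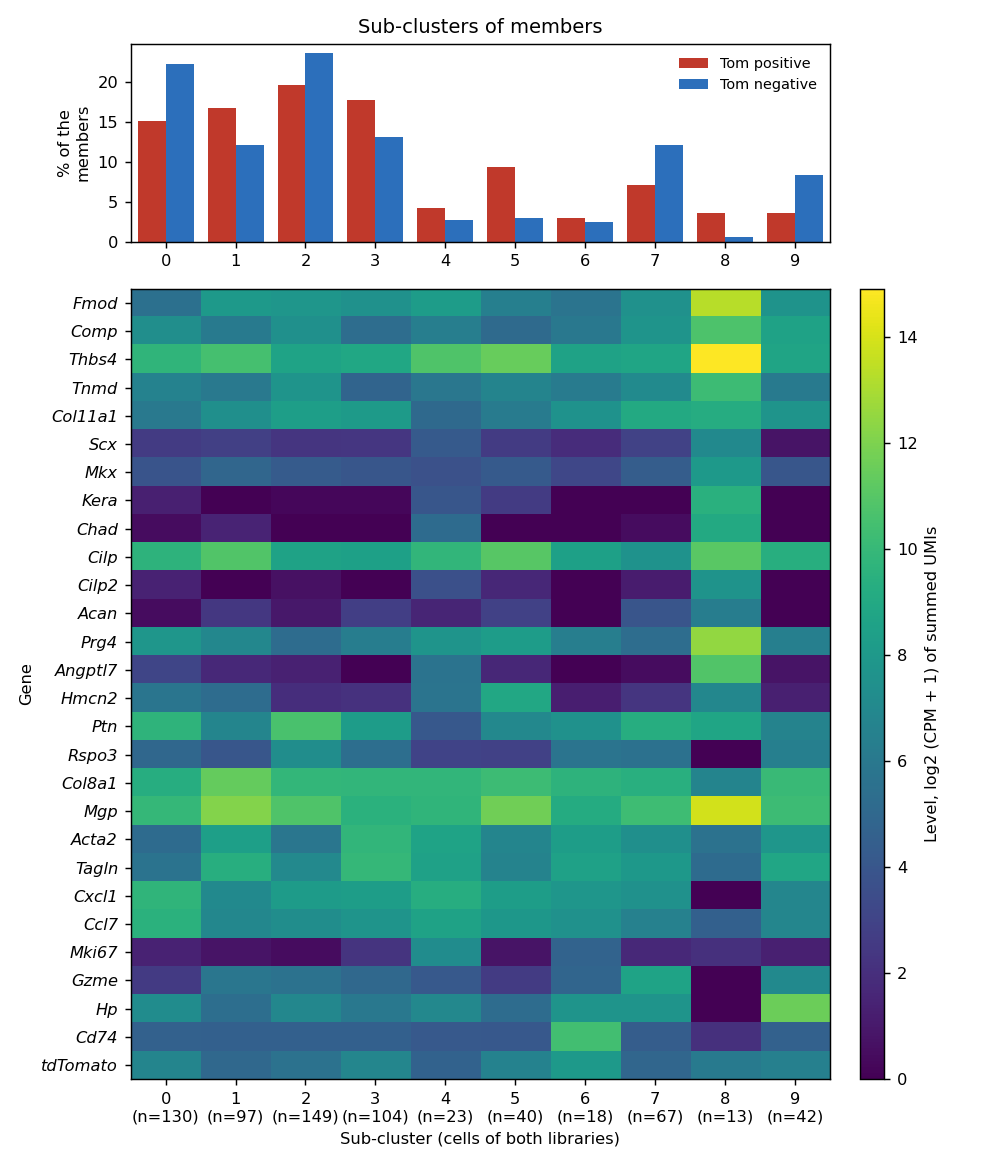
Top, share of each library's members in each of the 10 sub-clusters, in percent; bottom, log2 (CPM + 1) of summed UMIs of both libraries, colour from low (dark) to high (light). Sub-cluster 8 has the highest Fmod (10375 CPM), Thbs4 (30953 CPM), Kera and Scx, and sub-cluster 6 the highest Cd74.

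Over the 683 members, the genes whose levels per cell ran most like Tnmd were led by Fmod, Ogn and Col11a1. Of 6065 genes at 20 CPM or more, Fmod had the highest Pearson correlation, r = 0.41, followed by Ogn (0.31), Col11a1 (0.30), Prelp, Dcn, Mgp, Egfl6 and Plpp1 (0.27 to 0.28). Without sub-cluster 8 the value was 0.27 for Fmod and 0.32 for Ogn. The cells share 2 libraries and vary in depth, and Fmod was among the genes that chose them, so these values describe the members only.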

How the data were processed

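Stromal cells of the Tom positive and Tom negative sorts were measured with the 10x Genomics 3' kit version 3.1, per the labels' protocols. The deposited matrices hold whole-number UMI counts per gene and barcode, made with Cell Ranger 7.0.1 per the file headers and on mm10 per the submitters' processing notes. From these counts, fibroblasts and members were selected by the rule given in the report, with no doublets removed, and UMIs were summed per library and scaled to CPM. Differences are of log2 (CPM + 1), ratios are of plain CPM, and a gene was called at 1.5-fold among genes at 50 CPM or more in either sum (10 CPM for lists). Intervals at 95% are exact (binomial, Poisson or conditional), and a count of 0 was read as up to 3 counts.

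The members and the gene lists were chosen with earlier results of these data known. Genes are named by rank (15 highest and 10 lowest against other fibroblasts in both libraries, 12 each way between sorts), as scored or marker genes, as list members, or as the 8 most like Tnmd. Ranking left out repeated names, predicted genes, and haemoglobin, ribosomal protein and mitochondrial genes. Snorc and Ca9 had no match. Members were clustered in scanpy 1.11.5 (2000 variable genes, 20 components, 15 neighbours, Leiden resolution 0.8) without 288 scored, marker or sort-dependent genes; leading genes were ranked without each gene's top cell, a choice made after seeing the data. Reporter-high means 500 CPM of tdTomato or more, Tyrobp-high 500 CPM of Tyrobp or more. Shares of cells with a UMI were also taken at 5000 UMIs a cell. Scrublet was run per library on 4365 and 6677 barcodes at 1000 UMIs or more and marked 63 and 97. On simulated sums with 200 genes set apart by more than the 1.5-fold limit, 99.5% were recovered between the sorts among 3244 genes and 0 unchanged genes were called. The simulated sums held counting error only, with no variation between cells or libraries. They therefore check the calculation and say nothing on how far the calls in these data hold. Promoter windows are from RefSeq on GRCm38.p6, matched by symbol.

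The Tom positive library held 7568 barcodes and 128275546 UMIs, and the Tom negative library 13604 and 164646314. UMI sums over members were 12945516 and 13856266. Alternatives changed the cell filters, the scoring, the scaling, the expression minimum and the pseudocount, and left out sub-clusters 5, 6 or 8 or each gene's top cell; these 4, and the list counts without scored genes, were chosen after seeing the data.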

Additional observations from a re-analysis of the deposited data

Results flagged for a closer look

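Prg4, the gene of lubricin, differed from the other fibroblasts in opposite directions in the 2 libraries. The log2 difference, members minus other fibroblasts, was 0.63 in the Tom positive library (277 against 179 CPM) and -0.97 in the Tom negative library (105 against 207 CPM). The difference between the libraries was not tested. Sub-cluster 8 held 50.5% of the Prg4 UMIs of Tom positive members, and without it Prg4 was 139.9 CPM in Tom positive members and 105 CPM in Tom negative ones.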

How the results depend on the processing

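With the set of Fmod, Comp and Thbs4 required to lead by 0.5 z, the member shares were 14.7% and 11.0%. With z taken within each library the Tom positive share was 18.5% and the ratio of shares 1.09. Without Thbs4 in the set the shares were 17.2% and 14.2%. A minimum of 10 CPM gave 145 higher and 130 lower genes between the sorts, 365 and 337 against the other Tom positive fibroblasts, and 556 and 601 against the other Tom negative fibroblasts. A minimum of 200 CPM gave 14 and 4, 51 and 48, and 68 and 98. Thinned to 5000 UMIs, 55 genes were lower in Tom positive members. Between the sorts Hp turned to log2 differences of -0.50 with the 0.5 z margin, -0.76 with z above 0, -0.14 when thinned and -0.64 without its top cells. Lrg1 turned to -0.11 with z above 0 and -0.58 when thinned, and Cd74 and Wfdc17 turned to 0.14 and 0.13 when thinned. Against the other fibroblasts, thinning left Cxcl13 at -0.56 and -0.50 and Tom negative Mmp13 at -0.58, below 1.5-fold. Apart from single cells that hold most UMIs of Hp and Lrg1, the cause was not tested. Without sub-clusters 5, 6 or 8, counts of higher and lower genes between the sorts ran from 33 to 49 and from 21 to 24. Of the gene-level values under all alternatives, 2058 kept direction and side of 1.5-fold, 35 fell below it, 26 passed it, 8 past it turned sign and 1 below it (C7, thinned) passed it with the opposite sign. No paired analysis was possible because each sort has 1 library. The floor of 3 counts was 0.232 and 0.217 CPM over the members of each library.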
